A study of Mus musculus with 12 samples.

Results

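The respiratory chain was examined in fetal mouse hearts through 33 nuclear genes that encode its subunits, out of 768 probes measured. They were chosen by symbol: names that begin with Nduf, Sdh, Uqcr or Atp5, or with Cox followed by a digit of 4 to 8. Of these, 17 belong to complex I, 3 to complex II, 3 to complex III, 8 to complex IV and 2 to complex V. The rule also admits the cytochrome genes Cyc1 and Cycs, for which no probe was among those analysed here. Hearts were collected at E17.5, late in gestation, from matings of mice heterozygous for a knockout of Slc25a1, the mitochondrial citrate carrier. There were 4 hearts of homozygous knockout embryos (KO), 4 of heterozygous embryos (HET) and 4 of wild type embryos (WT), each a separate sample of total RNA. Transcripts were measured with NanoString nCounter, in which barcoded probes that have bound their targets are counted singly and nothing is amplified. The labels name no litter, sex, assay batch or genetic background, and they do not describe how the allele was disrupted, so these could not be set against the results. They name no tissue-specific promoter or Cre, and every embryo had heterozygous parents.

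The respiratory chain sits in the inner mitochondrial membrane. Complex I takes electrons from NADH and complex II from succinate, and both hand them to ubiquinone. Complex III passes them from ubiquinone to cytochrome c, complex IV passes them to oxygen, and complex V, the ATP synthase, uses the resulting proton gradient to make ATP. The working heart is rich in these complexes, and their amount increases as heart muscle matures. Most subunits are encoded in the nucleus, but others are encoded in mitochondrial DNA, among them catalytic core subunits of complexes III and IV. None of 13 listed subunits of mitochondrial DNA was probed here, so the complexes were seen only through nuclear genes. Slc25a1 exports citrate from the matrix, and it shares the inner membrane with these complexes.

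Each value deposited by the authors was a ratio to Tbp, a general transcription factor gene, in the same heart. Whole probe counts were recovered from the ratios, with 276 to 433 counts of Tbp and 1285512 to 1565516 counts in all per heart. The counting error of Tbp alone was 4.81% to 6.02%, and every ratio of a heart shares it. Slc25a1 followed the labels, at 0.0985 ± 0.0182 in KO, 0.345 ± 0.0404 in HET and 0.613 ± 0.00721 in WT hearts (SD, n = 4 each). None of 12 listed cardiomyocyte markers was probed, so the tissue label could only be set against muscle-type metabolic genes such as Eno3 and Pgam2, which were measured in every heart. Counts of 2 hearts from the same genotype disagreed beyond sampling noise in every pair (chi-square over its degrees of freedom 2.81 to 29.3), so no 2 of them appear to be 1 library deposited again.

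The start regions of the genes give one way to see what the subunits share outside their expression values. RefSeq (GRCm38.p6) promoter windows of 300 bases, from 250 before to 50 after the start site, were matched for 29 of the 33 members. Cox4i1, Ndufa2, Sdhc and Uqcrq had no window in the table used. Letters recognised by NRF1 (GCGCANGCG), a factor known for activating nuclear genes of the respiratory chain, stood on either strand in 8 of 29 members (27.6%), against 7.03% of 27025 genes. The core letters of ETS factors such as GABPA (CCGGAAG) were found in 8 of 29 members (27.6%), against 9.93% of all genes. The YY1 letters AANATGGCG were present in 3 members (10.3%, against 2.76%), and the ERR letters TCAAGGTCA in 0 of 29, against 0.466% of all genes. In total 13 members held NRF1 or ETS letters and 13 held none of the 4 motifs. The background was all genes with a window, not genes matched to the members for base content or expression. A match of letters is a description of these windows only.

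Windows of 6 members are shown, chosen among the members that had a window. They are the member with the smallest KO against WT limma p in each complex and the member with the largest p. Uqcrq and Cox4i1 had smaller p than Uqcr11 and Cox5b but had no window. Ndufb10, Sdhb, Uqcr11, Cox5b and Atp5k were among the members with an unadjusted p under 0.05 in KO against WT hearts, and Cox8a was the member nearest to no difference. Capitals mark the motif letters, the NRF1 letters or the ETS letters on either strand. The windows lie at chr17:24724374-24724673 (Ndufb10, minus strand), chr4:140961021-140961320 (Sdhb, plus strand), chr10:80406772-80407071 (Uqcr11, minus strand), chr1:36691237-36691536 (Cox5b, plus strand), chr5:108434350-108434649 (Atp5k, minus strand) and chr19:7217567-7217866 (Cox8a, minus strand). Each is printed 5′ to 3′ in the direction of its gene.
Ndufb10: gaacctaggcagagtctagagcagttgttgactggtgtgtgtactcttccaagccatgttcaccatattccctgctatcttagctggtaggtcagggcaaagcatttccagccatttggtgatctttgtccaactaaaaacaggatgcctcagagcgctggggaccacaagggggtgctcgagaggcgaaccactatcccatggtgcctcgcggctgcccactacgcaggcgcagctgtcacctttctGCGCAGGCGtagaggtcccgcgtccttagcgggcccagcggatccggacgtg
Sdhb: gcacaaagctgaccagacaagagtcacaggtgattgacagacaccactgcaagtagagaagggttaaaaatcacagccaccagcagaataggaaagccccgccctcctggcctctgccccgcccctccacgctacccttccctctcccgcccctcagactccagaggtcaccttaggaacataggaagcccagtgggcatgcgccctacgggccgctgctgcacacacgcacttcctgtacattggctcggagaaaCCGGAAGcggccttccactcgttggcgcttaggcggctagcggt
Uqcr11: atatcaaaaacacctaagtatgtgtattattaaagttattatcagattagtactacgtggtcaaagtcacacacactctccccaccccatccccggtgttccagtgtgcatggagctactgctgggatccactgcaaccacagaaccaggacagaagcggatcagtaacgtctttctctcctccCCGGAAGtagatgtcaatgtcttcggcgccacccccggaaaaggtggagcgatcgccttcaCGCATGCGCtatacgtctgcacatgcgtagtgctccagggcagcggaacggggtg
Cox5b: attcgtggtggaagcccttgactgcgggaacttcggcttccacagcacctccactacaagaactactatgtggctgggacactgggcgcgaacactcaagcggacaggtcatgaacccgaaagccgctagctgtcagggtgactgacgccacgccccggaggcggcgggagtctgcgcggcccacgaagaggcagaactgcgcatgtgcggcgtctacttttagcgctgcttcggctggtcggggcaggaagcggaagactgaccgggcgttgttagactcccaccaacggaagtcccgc
Atp5k: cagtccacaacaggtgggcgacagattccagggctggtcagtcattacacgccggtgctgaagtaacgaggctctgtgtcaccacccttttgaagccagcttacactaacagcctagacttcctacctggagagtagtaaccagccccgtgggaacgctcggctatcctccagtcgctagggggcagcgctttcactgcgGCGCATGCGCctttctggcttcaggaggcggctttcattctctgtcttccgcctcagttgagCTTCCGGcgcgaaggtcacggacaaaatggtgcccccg
Cox8a: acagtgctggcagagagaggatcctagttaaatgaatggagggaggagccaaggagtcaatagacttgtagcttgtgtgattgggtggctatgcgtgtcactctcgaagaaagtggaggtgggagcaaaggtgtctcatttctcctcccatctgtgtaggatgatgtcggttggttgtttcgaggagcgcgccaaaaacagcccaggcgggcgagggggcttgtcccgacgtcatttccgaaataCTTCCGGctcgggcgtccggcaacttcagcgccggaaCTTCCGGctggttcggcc
Ndufb10 had NRF1 letters that begin 2 bases before the start site, and Uqcr11 had both NRF1 and ETS letters. Atp5k had an NRF1 palindrome read on both strands, beginning 50 bases before the start, with ETS letters after it. Cox5b held none of the 4 motifs, and Cox8a held the ETS letters at 2 places on the reverse strand.

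The first comparison asks how transcripts of the respiratory chain stand in hearts without the citrate carrier. All 33 members had a lower mean in KO hearts than in WT hearts, as did 74.8% of the 695 genes tested. The median log2 difference over the members was -0.34, against -0.13 over all genes tested, and the members' median relative to that of all genes was -0.21. No member passed the test: limma called 0 of 33 at an adjusted p under 0.05 (0.144% of all genes tested were called), and the members' adjusted p ran from 0.371 to 0.878. At an unadjusted p under 0.05, 17 of 33 members were lower, against a background of 9.5%. In none of the 33 did the 4 KO hearts lie wholly below the 4 WT hearts, a pattern found in 2.59% of genes.

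**Figure D1:**
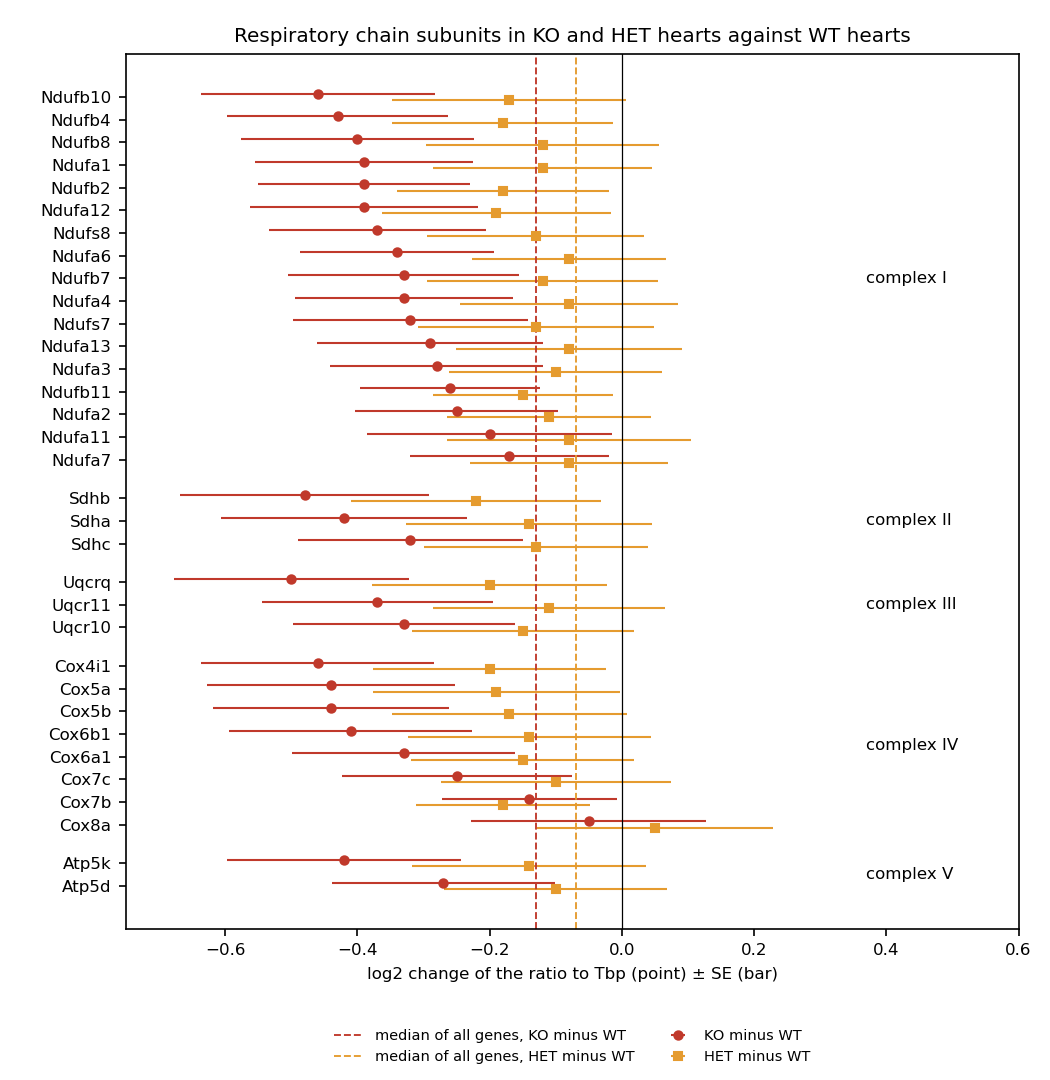
Log2 difference of the ratio to Tbp (point) with its standard error (bar) for each of the 33 subunits, in KO hearts (red circles) and HET hearts (orange squares) against WT hearts, grouped by complex. Every red point lies below 0, from -0.50 for Uqcrq to -0.05 for Cox8a, and the dashed lines mark the medians of all 695 genes, -0.13 for KO and -0.07 for HET.

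The count of calls depended on how the hearts were weighted. With weights that lower the influence of hearts far from their group, limma called 27 of 33 members lower in KO hearts, along with 22.4% of all genes. The hearts given the least weight were HET 4 (0.291), WT 2 (0.365), KO 1 (0.416) and WT 3 (0.467). Among WT hearts, the most weight went to WT 1 (3.11) and WT 4 (1.62), which were also the WT hearts highest in respiratory chain transcripts. The weights were estimated from these same values, so the count with heart weights is a description only. With a score of stromal genes as a covariate, 17 of 33 members were called lower in KO than in WT hearts, against 4.89% of all genes. That score had been defined after its pattern in these data was seen, so all counts that use it are a description only. Without the 3 hearts highest in that score, the count was 0 of 33 on the deposited scale and 13 of 33 after centring each heart on its median, against 0.288% and 4.6% of all genes. A second scale was therefore read beside the first: with each heart centred on its median, 32 of 33 members were below WT (49.8% of all genes), 16 at an unadjusted p under 0.05 (10.1%), 0 had groups without overlap (3.74%), and 0 were called, the lowest adjusted p being 0.223. Centring and the stromal covariate together gave 12 of 33 called lower, against 3.88% of all genes.

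Complex I, the NADH dehydrogenase, is the largest of the 5 and was represented by 17 genes. Their KO minus WT log2 differences ran from -0.46 to -0.17 with a median of -0.33, and 8 of the 17 had an unadjusted p under 0.05. Ndufb10, an accessory subunit of the membrane arm, had ratios of 27.9, 34.6, 30.6 and 38.2 in KO hearts 1 to 4, of 47.8, 39.4, 45.1 and 29.3 in HET hearts 1 to 4, and of 50.7, 34.9, 41.8 and 54.6 in WT hearts 1 to 4. Only KO heart 4 exceeded the lowest WT heart, while HET heart 4 lay below all WT hearts. Its log2 difference was -0.46 (SE 0.177, limma adjusted p = 0.371), or 72.2% of the WT mean.

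The same hearts were lowest in Ndufb4, also of the membrane arm. Ndufb4 measured 6.58, 8.71, 7.52 and 9.39 in KO hearts, 10.8, 9.85, 10.5 and 7.2 in HET hearts, and 12, 8.73, 9.87 and 12.9 in WT hearts. The KO and WT groups overlapped only through KO heart 4 and WT heart 2, and the log2 difference was -0.43 (SE 0.167, adjusted p = 0.371). Ndufb2, another membrane arm subunit, had 16.9, 19.9, 18.6 and 22.2 in KO hearts, 25.8, 22.9, 24.8 and 17 in HET hearts, and 28, 20.5, 23.2 and 30.4 in WT hearts. Here too KO heart 4 was above WT heart 2, and the log2 difference was -0.39 (SE 0.16, adjusted p = 0.371).

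Ndufa11, which lies where the membrane arm meets other complexes, had the largest p of complex I. It measured 0.141, 0.186, 0.223 and 0.216 in KO hearts, 0.24, 0.219, 0.23 and 0.15 in HET hearts, and 0.246, 0.18, 0.194 and 0.259 in WT hearts. The groups were interleaved, with a log2 difference of -0.20 (SE 0.185, adjusted p = 0.54). Its probe had only 56 to 78 counts per heart, the fewest of the 33, yet its SE was close to that of Ndufb10 (0.177). A difference of the size seen in Ndufb10 was within the 95% interval of Ndufa11, -0.60 to 0.19.

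The other complex I members are best read by position in the enzyme, a grouping made after their values were seen and given without a test. In the distal part of the membrane arm, Ndufb2, Ndufb4, Ndufb7, Ndufb8, Ndufb10 and Ndufb11 had a median log2 difference of -0.40. Within that part Ndufb8 stood at -0.40, Ndufb7 at -0.33 and Ndufb11 at -0.26. In the matrix arm, which holds the iron-sulfur clusters, the 6 members had a median of -0.33. Ndufs7 and Ndufs8, core subunits that carry such clusters, stood at -0.32 and -0.37, against -0.39 for Ndufa12, -0.34 for Ndufa6, -0.25 for Ndufa2 and -0.17 for Ndufa7. In the proximal membrane arm the median over 4 members was -0.29, with Ndufa1 at -0.39, Ndufa13 at -0.29 and Ndufa3 at -0.28. Set against each other within each heart, relative to the WT mean, the distal part minus the matrix arm was -0.06, -0.08, -0.07 and -0.07 in KO hearts, -0.02, -0.04, -0.03 and -0.05 in HET hearts, and 0.03, -0.02, -0.01 and 0.01 in WT hearts, so its KO and WT hearts did not overlap. The distal part minus the proximal part was -0.05, -0.08, -0.17 and -0.05 in KO hearts and 0.01, -0.01, -0.02 and 0.01 in WT hearts, without overlap, but with overlap once Ndufa11 and its low counts were left out. For the matrix arm against the proximal part, the last of the 3 pairs, KO and WT hearts overlapped. Ndufa4 was counted with complex I by its symbol but is now known as a subunit found with complex IV. It stood at -0.33, and moving it gave medians of -0.34 for complex I and -0.33 for complex IV.

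Complex II, succinate dehydrogenase, also works in the citric acid cycle and was represented by 3 of its 4 subunits, Sdhd not being among the probes. Its median log2 difference was -0.42, the lowest of the 5 complexes, and 2 of 3 members had an unadjusted p under 0.05. Sdhb, the iron-sulfur subunit, had ratios of 19.9, 29.1, 24.9 and 31.1 in KO hearts, 36.8, 31.8, 33.6 and 23.8 in HET hearts, and 41.5, 27, 33.7 and 45.2 in WT hearts. KO hearts 2 and 4 lay above WT heart 2, and the log2 difference of -0.48 (SE 0.189, adjusted p = 0.371) put the KO mean at 71.2% of WT. Sdha, the flavoprotein that oxidises succinate, measured 19.2, 26.5, 23.2 and 28.3 in KO hearts, 33.8, 28, 33.2 and 23.3 in HET hearts, and 37.3, 23.4, 29.7 and 41.1 in WT hearts. WT heart 2 was below KO hearts 2 and 4 in this gene as well, with a log2 difference of -0.42 (SE 0.186). Sdhc, a membrane anchor of the complex, had 21.5, 27.9, 25.3 and 29.6 in KO hearts, 34.1, 29.7, 34 and 22.4 in HET hearts, and 36.2, 25.5, 30.2 and 39.6 in WT hearts. Its log2 difference was -0.32 (SE 0.17), with KO hearts 2 and 4 again above WT heart 2.

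Complex III, the ubiquinol to cytochrome c oxidoreductase, was represented by 3 small accessory subunits and none of its catalytic ones. The median log2 difference was -0.37, and 2 of 3 members had an unadjusted p under 0.05. Uqcrq, which binds beside cytochrome b, had the lowest value of the 33 members. Its ratios were 37.6, 53.7, 44 and 55 in KO hearts, 67.9, 58.5, 63.5 and 44.7 in HET hearts, and 75.4, 51.6, 61.3 and 81.7 in WT hearts. Even here KO hearts 2 and 4 lay above WT heart 2, and the log2 difference was -0.50 (SE 0.178, adjusted p = 0.371), with a 95% interval of -0.88 to -0.12. Uqcr11 measured 37, 48.6, 44.8 and 51.1 in KO hearts, 62.2, 53.7, 64.1 and 39.7 in HET hearts, and 64.8, 45.4, 56.8 and 69.6 in WT hearts, a log2 difference of -0.37 (SE 0.175). Uqcr10 had 41.7, 58.3, 49.2 and 58.6 in KO hearts, 67.6, 59.7, 62.8 and 45.5 in HET hearts, and 73.7, 51.8, 59.2 and 78 in WT hearts, a log2 difference of -0.33 (SE 0.168). In both genes WT heart 2 stood below KO hearts 2 and 4, so the KO and WT groups overlapped.

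**Figure D2:**
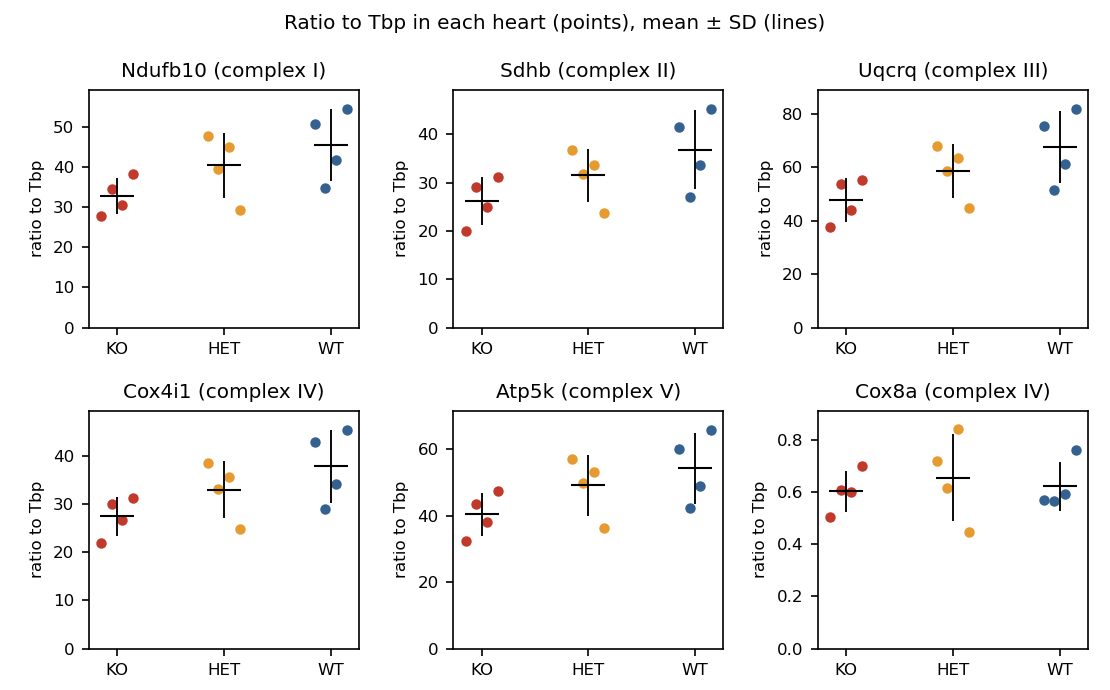
Ratio to Tbp in each heart (points, replicates 1 to 4 from left to right within a group) with mean and SD (lines) for the member of smallest p in each complex and for Cox8a, in KO, HET and WT hearts. In each panel HET heart 4 and WT heart 2 are the lowest of their groups, and KO heart 4 lies above WT heart 2.

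Complex IV, cytochrome c oxidase, was represented by 8 nuclear-encoded subunits. The range among them was the widest of the 5 complexes, but only through Cox8a and Cox7b, both of low count. The other members ran from -0.46 (Cox4i1) to -0.25 (Cox7c), against -0.46 to -0.17 in complex I. The median log2 difference was -0.37, with values from -0.46 to -0.05, and 4 of 8 had an unadjusted p under 0.05. Cox4i1, a subunit through which ATP is known to regulate the enzyme, had ratios of 21.9, 29.9, 26.6 and 31.1 in KO hearts, 38.5, 33, 35.5 and 24.7 in HET hearts, and 42.8, 29, 34 and 45.2 in WT hearts. KO hearts 2 and 4 were above WT heart 2, and the log2 difference was -0.46 (SE 0.176, adjusted p = 0.371). Cox5b, a zinc-binding subunit on the matrix side, measured 57.4, 78.4, 68.6 and 82.8 in KO hearts, 101, 85.5, 95.6 and 64.4 in HET hearts, and 110, 74.7, 88.7 and 118 in WT hearts. Cox5a, its neighbour in the enzyme, had 60.8, 86.3, 74.9 and 93.6 in KO hearts, 111, 94.4, 101 and 70.4 in HET hearts, and 121, 80.1, 98.3 and 132 in WT hearts. Both stood at -0.44 on the log2 scale (SE 0.178 for Cox5b and 0.187 for Cox5a), and in both the same KO hearts, 2 and 4, exceeded WT heart 2.

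Cox8a, the isoform of subunit 8 found in most tissues, stood nearest to 0 of the 33 members. Its ratios were 0.505, 0.607, 0.599 and 0.7 in KO hearts, 0.719, 0.616, 0.841 and 0.448 in HET hearts, and 0.569, 0.566, 0.594 and 0.762 in WT hearts. KO hearts 2, 3 and 4 were above WT hearts 1, 2 and 3, and the log2 difference of -0.05 (SE 0.178, adjusted p = 0.878) had a 95% interval of -0.43 to 0.34. That interval includes the value of Cox6b1 (-0.41), and the probe had 157 to 249 counts per heart. The sign of Cox8a turned to 0.08 when each heart was centred on its median. Of the remaining members, Cox6b1 stood at -0.41, Cox6a1, the isoform found outside mature muscle, at -0.33, Cox7c at -0.25 and Cox7b at -0.14. Cox7b also had a low count, 220 to 290 per heart, and centring put it at 0.00.

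Complex V was represented by 2 members, so its values describe those genes rather than the ATP synthase. Atp5k, subunit e of the membrane part where synthase dimers meet, had ratios of 32.5, 43.4, 38.2 and 47.5 in KO hearts, 57.2, 49.9, 53.2 and 36.3 in HET hearts, and 60.2, 42.2, 49.1 and 65.9 in WT hearts. Its log2 difference was -0.42 (SE 0.177, adjusted p = 0.371), with KO hearts 2 and 4 above WT heart 2. Atp5d, the delta subunit of the rotating central stalk, measured 15, 19.9, 17.6 and 21.4 in KO hearts, 23.3, 20.4, 24 and 15.9 in HET hearts, and 24.4, 17.7, 20.5 and 27.3 in WT hearts. The log2 difference of Atp5d was -0.27 (SE 0.169, adjusted p = 0.399), and the groups again overlapped.

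The next comparison asks what the loss of 1 copy did. Of the 33 members, 32 had a lower mean in HET than in WT hearts (67.3% of all genes did), with a median log2 difference of -0.13 against -0.07 over all genes. limma called 0 of 33 (0.144% of all genes), and 0 of 33 had an unadjusted p under 0.05 with a lower HET value (background 0.719%). By complex the medians were -0.12 for I, -0.14 for II, -0.15 for III, -0.16 for IV and -0.12 for V. Cox8a was the exception, at 0.05. With each heart centred on its median, 31 of 33 members were below WT (47.3% of all genes). The value depended on single hearts and on the scaling. Without HET heart 4 the median over the members was 0.00, with 16 of 33 below WT. It was -0.04 without WT heart 4, -0.25 without WT heart 2 and -0.20 without HET heart 3. Scaled to the total count it was 0.00 with 17 of 33 below, after quantile normalization 0.01 with 13 below, after centring on housekeeping genes -0.03 with 24 below, and with the stromal covariate 0.03 with 13 below.

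KO and HET hearts were then set against each other, to ask what the loss of the second copy adds. The KO mean was below the HET mean in 32 of 33 members (71.4% of all genes), Cox7b being the exception at 0.05. The median log2 difference was -0.21 over the members and -0.08 over all genes. By complex it was -0.21 for I, -0.26 for II, -0.26 for III, -0.22 for IV and -0.22 for V. limma called 0 of 33 (0.432% of all genes), and 0 of 33 had an unadjusted p under 0.05 (background 3.31%). This value also moved with single hearts and with the scaling. It was -0.37 without HET heart 4, -0.14 without KO heart 1, -0.14 with housekeeping centring (32 of 33 below), -0.08 when scaled to the total count (28 below) and -0.04 after quantile normalization (27 below). With the stromal score as a covariate, 22 of 33 members were called lower in KO than in HET hearts, along with 7.34% of all genes. As before, the score had been defined after its pattern was seen, so these calls are a description only. With the covariate after median centring it was 13 of 33 (4.46%), and with heart weights 0 of 33 (0.863%). After median centring alone, 32 of 33 members were below HET (57.7% of all genes), and Ndufa6 was the 1 member whose KO hearts all lay below all HET hearts, a pattern seen in 2.3% of genes. The HET mean lay between the KO and WT means, KO lowest, in 31 of 33 members and in 49.9% of all genes. The comparisons share hearts, so these counts do not add to each other.

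Set side by side in each heart, the complexes stood close together. The mean log2 value of all members, relative to the WT mean, was -0.61, -0.24, -0.38 and -0.14 in KO hearts 1 to 4, 0.06, -0.13, 0.06 and -0.53 in HET hearts, and 0.15, -0.32, -0.10 and 0.28 in WT hearts. The group means were -0.34 ± 0.203 in KO, -0.13 ± 0.278 in HET and 0.00 ± 0.266 in WT hearts (SD, n = 4 each), a KO to WT difference not much larger than the spread between hearts (pooled SD 0.251). The lowest heart of a genotype was nearly always the same. KO heart 1 was the lowest KO heart in 32 of 33 members, HET heart 4 the lowest HET heart in 33, WT heart 2 the lowest WT heart in 33 and WT heart 4 the highest in 33. WT heart 2 lay below KO heart 4 in all 33 members. The summed count of the 33 probes took 25.3 ± 0.69% of all counts in KO, 27 ± 1.45% in HET and 27.4 ± 1.56% in WT hearts (SD, n = 4 each).

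**Figure D3:**
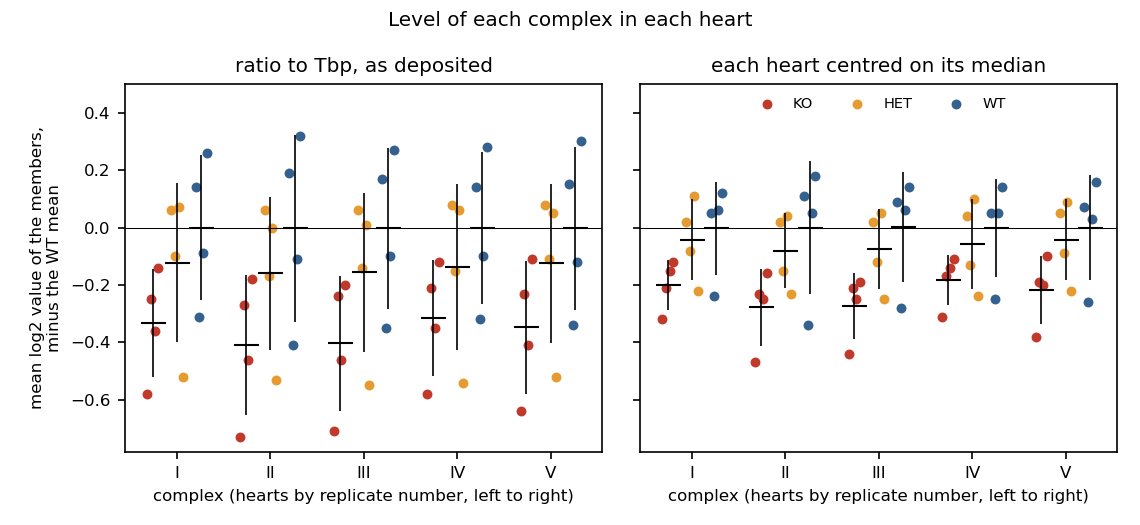
Mean log2 value of the members of each complex in each heart (points) with group mean and SD (lines), relative to the WT mean, in KO, HET and WT hearts, as deposited (left) and with each heart centred on its median (right). In all 5 complexes and on both scales KO heart 1, HET heart 4 and WT heart 2 are the lowest of their groups, while the order of the other hearts varies.

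Differences between complexes within a heart were much smaller than differences between hearts. Over the 10 pairs of complexes, the largest mean difference in KO hearts relative to WT hearts was 0.09 on the log2 scale. Complex II relative to complex IV averaged -0.09 ± 0.0456 in KO, -0.02 ± 0.0271 in HET and 0.00 ± 0.0649 in WT hearts (SD, n = 4 each), and its KO and WT hearts overlapped. Complex III relative to complex IV was -0.13, -0.04, -0.11 and -0.08 in KO hearts and 0.03, -0.03, 0.00 and -0.01 in WT hearts, the 1 pair of 10 without overlap. With the members under 1000 counts left out, 0 of 10 pairs were free of overlap. Those members are Ndufa11, Cox7b and Cox8a, and 2 of them belong to complex IV. Complex I relative to complex II averaged 0.08 ± 0.0586 in KO hearts and 0.00 ± 0.0756 in WT hearts (SD, n = 4 each). When every heart was centred on the mean of the chain, 0 of 33 members were called in KO against WT (0.144% of all genes) and 0 of 33 in KO against HET (0.863%). In KO against WT, the members farthest from the common difference were Cox8a at 0.29 (adjusted p = 0.116), Cox7b at 0.21 (adjusted p = 0.181), Ndufa7 at 0.17 (adjusted p = 0.099) and Uqcrq at -0.16 (adjusted p = 0.116).

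Whether the difference depends on transcript level was read from the probe count, with a limit. Counts of different probes are not on 1 scale per transcript, because probes differ in how well they capture their target, so a low count may be a rare transcript or a weak probe. Over the 33 members, the KO minus WT log2 difference was lower the higher the mean count, with a Pearson r of -0.72 and a Spearman rho of -0.57, across genes that share the same 12 hearts and are not independent. Over the 661 other genes r was -0.47. The member relation leaned on the 3 members of low count, and over the 30 members of at least 1000 counts r was -0.47, against -0.29 over the 184 other genes of at least 1000 counts. The slopes over all counts were close, -0.0356 per log2 unit of count over the members and -0.0392 over the other genes. Within complex I r was -0.64 over 17 members. Within complex IV it was -0.85 over 8 members but 0.45 over the 6 of at least 1000 counts. In HET against WT hearts r was -0.47 over the members and -0.48 over the other genes. In KO against HET hearts it was -0.67 over the members and -0.08 over the other genes. Among genes of at least 1000 counts the KO against HET values lay closer together, at -0.41 over the members and -0.19 over the others. Quantile normalization gives every heart the same distribution of counts, which largely removes by construction a trend with count shared by the panel. After it, r in KO against WT was 0.14 over the members and 0.01 over the other genes. These 2 values therefore cannot show whether the difference depends on level.

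**Figure D4:**
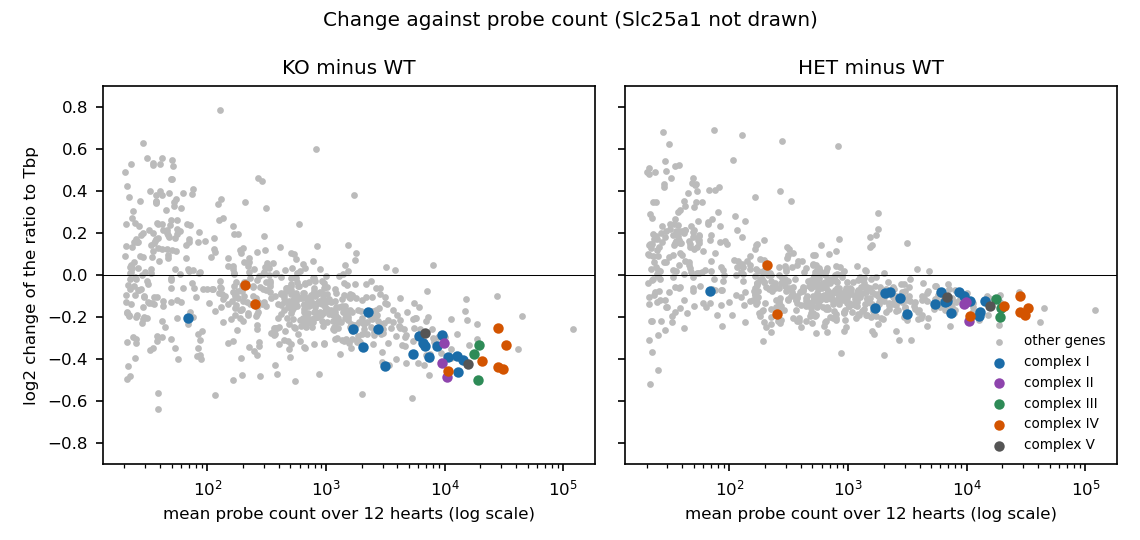
Log2 difference of the ratio to Tbp against mean probe count over 12 hearts (log axis) for the members, coloured by complex, and the other genes tested (grey), in KO (left) and HET (right) against WT hearts. Members of high count lie low on the left, with r = -0.72 over the 33 members and -0.47 over the other genes.

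Read in bands of count, the median of the members lay below that of the other genes in each band in KO against WT hearts. From 20 to 1000 counts the medians were -0.14 over 3 members and -0.08 over 477 other genes. This band is wide, and a finer cut of it at quartiles of count gave a mixed picture. From 20.2 to 83.2 counts, 1 member stood at -0.20, against a median of 0.06 over 173 other genes. From 83.2 to 477 counts, the medians over 2 members and over 170 other genes were both -0.09. From 1000 to 4000 they were -0.26 over 5 members and -0.19 over 131 others. Between 4000 and 8000 they were -0.33 over 6 members and -0.25 over 32 others. From 8000 to 16000 they were -0.40 over 11 members and -0.29 over 14 others, and at 16000 or more -0.39 over 8 members and -0.25 over 7 others. Each band holds fewer than 20 members, so the bands are a description only. In HET against WT hearts the band of 16000 or more stood at -0.15 over the members and -0.16 over the others. Among the 78 genes of at least 4000 counts, 25 were members, and members made up 7 of the 10 and 13 of the 20 lowest differences.

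Genes that assemble or regulate the chain were sparse on the panel. Of 31 listed assembly factors 2 were probed, Cox10, an enzyme on the way to the heme A of complex IV, at -0.25 (SE 0.178, limma adjusted p = 0.449), and Cox14, which works with its newly made COX1 subunit, at -0.29 (SE 0.162, adjusted p = 0.377). Of 24 listed regulators 5 were probed, and all 5 had a lower KO than WT mean with a median of -0.13, the same as over all genes, with 0 called and 1, Tfam, at an unadjusted p under 0.05. Tfam, which packages and transcribes mitochondrial DNA, had ratios of 1.77, 2.2, 2.04 and 2.58 in KO hearts, 2.66, 2.37, 2.3 and 2.09 in HET hearts, and 2.82, 2.4, 2.44 and 3.05 in WT hearts. Only KO heart 4 was above the lowest WT heart, and the log2 difference was -0.33 (SE 0.135, adjusted p = 0.371). Nrf1, the gene of the factor whose letters were searched in the promoters, stood at -0.15 (SE 0.115, adjusted p = 0.491). A list of the citric acid cycle and the entry of pyruvate into it had 15 probed genes, of which 14 were lower in KO hearts (74.8% of all genes were), with a median of -0.32. Of these, 0 were called and 5 had an unadjusted p under 0.05 (background 9.5%). The 5 were the cycle enzyme genes Idh3b and Fh1, Pdha1 of the pyruvate dehydrogenase complex, Mpc2 of the pyruvate carrier and Idh1, which encodes a cytosolic enzyme; they are named here after their values were seen. The 23 candidate housekeeping genes had a median of -0.18, all below WT, with 1 at an unadjusted p under 0.05 and 0 called. No probe measured any of 19 listed electron carriers and their feeders, 9 adenine nucleotide and porin channels or 13 mitochondrially encoded subunits.

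Markers of stroma were high in the hearts that were lowest of their genotype in respiratory chain transcripts. In bulk RNA, fewer cells of a type and less RNA per cell cannot be told apart. Averaging 7 genes of matrix and mesenchyme (log2, after centring each heart) gives a stromal score, which was 0.67, 0.03, 0.28 and -0.14 in KO hearts 1 to 4, -0.10, 0.33, -0.04 and 0.87 in HET hearts, and -0.17, 0.67, 0.03 and -0.53 in WT hearts. The heart highest in the score was the lowest of its genotype in respiratory chain transcripts in each of the 3 groups. Because the score had been defined after its pattern was seen, this match is a description only. The part of the score in the differences was not tested. The summed ratio of the 7 stroma markers probed of 13 listed was 22.4 to 27.9 in KO, 21.5 to 33.2 in HET and 19.5 to 33 in WT hearts, and in KO against WT 3 of the 7 were below and 4 above, with a median of 0.11 and 0 called. Thbs2, a matrix protein gene, stood at 0.38 (SE 0.235, adjusted p = 0.399) and Pdgfrb, a receptor gene of mural cells and fibroblasts, at -0.10 (SE 0.115, adjusted p = 0.626). Leukocyte markers, 8 of 9 probed, summed to 1.29 to 1.43 in KO, 1.5 to 1.84 in HET and 1.31 to 1.97 in WT hearts. Their sum was highest in the heart lowest in the chain among KO hearts (heart 1, 1.43) and among WT hearts (heart 2, 1.97). The KO hearts differed little, however, and KO heart 4, the highest of them in the chain, had 1.4. Leukocyte markers did not follow the chain in HET hearts, where their sum was highest in heart 3 (1.84), with 1.62 in heart 4. Of the 7 tested in KO against WT, 4 were below and 3 above, with a median of -0.10 (0.03 after centring), 1 with an unadjusted p under 0.05 and 0 called. Cd68, a macrophage gene, stood at -0.47 (SE 0.192, adjusted p = 0.371), and Itgam, a myeloid integrin gene, at -0.40 (SE 0.205, adjusted p = 0.371). Of 6 endothelial markers Flt1 alone was probed, at 0.01 (SE 0.163), and 0 of 4 erythroid markers were. The muscle-type metabolic genes Eno3 and Pgam2 stood at -0.43 (SE 0.185) and -0.36 (SE 0.169), and all 4 genes of that list outside the chain were below WT, with a median of -0.36. Tbp itself had its highest counts in HET heart 4 (433) and KO heart 1 (398), so the denominator of the ratio moved with the low hearts as well, and its part was not tested. Scaled to the total count instead of Tbp, the complex medians in KO against WT were -0.07 for I, -0.15 for II, -0.11 for III, -0.11 for IV and -0.08 for V, with all genes at a median of 0.13.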

How the data were processed

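Total RNA of each of 12 hearts was prepared with an RNeasy Micro kit, per the labels' protocols, and probed on the NanoString nCounter platform. The values deposited by the authors are ratios to Tbp of the same heart, for 768 probes. Software, background subtraction and control scaling: not given in the sources used here. Each heart's ratios were multiplied by the smallest whole number that made them all whole within 0.01, which was read as its Tbp count. A larger multiple would give whole numbers as well, so these counts are the smallest the ratios allow. Totals ran from 1285512 to 1565516 counts.

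Values were analysed as log2((count + 1) / Tbp count) in R 4.3.3 with limma 3.58.1. After leaving out Tbp and the 72 probes that averaged under 20 counts, 695 genes were tested, all 33 members among them. A limma fit over all 12 hearts with 1 mean per genotype gave the 3 pairwise comparisons of genotypes, and the p-values were adjusted by Benjamini-Hochberg over the 695 genes, with a threshold of 0.05. On this scale the changes of low genes are understated. Subtracting each heart's lowest count moved the KO against WT slope on log2 count from -0.0392 to -0.0485 over the other genes. Over the members that slope stayed at -0.0356. Complex medians, heart means and correlations over genes carry no test. The labels do not say whether the hearts of a genotype came from separate litters, so the p-values measure the spread between these hearts.

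Members, gene lists, motifs and alternatives were chosen with earlier results of these data known, and the stromal score had been defined after its pattern was seen. Every member is named; values in each heart are given for up to 3 members with the smallest KO against WT p in each complex and for the member with the largest. Of the assembly, regulator and cell lists, up to 2 genes with the smallest p are named. The 34 other settings covered the scaling, pseudocount, filter, variance model, weights, covariate, replicate block and each heart left out. The fit was tested on simulated data. Motifs were searched on both strands of RefSeq promoter windows with Python 3.11.15, and plots were drawn with matplotlib 3.10.9.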

Additional observations from a re-analysis of the deposited data

Results flagged for a closer look

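In 2 of the 102 sets of 4 hearts examined (33 members and the targeted gene, in 3 genotypes), 1 heart stood far from the other 3. Chance gives such a gap in about 1 of 20 sets. Cox8a in WT heart 4 had a ratio of 0.762, against 0.566 to 0.594 in the other WT hearts, a gap of 0.856 of the group's range. Ndufb11 in HET heart 4 had a ratio of 4.2, against 5.23 to 5.4 in the other HET hearts, a gap of 0.861 of the range.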

How the results depend on the processing

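Of the 34 other settings, all that recount the calls left 0 members called in the 3 comparisons, except 4. In KO against WT it was 27 with heart weights, 17 with the stromal score as a covariate, 12 with that covariate after median centring and 13 after median centring without the 3 hearts highest in the score. In KO against HET it was 22 with the covariate and 13 with the covariate after median centring. The heart weights were estimated from these same values and favoured the WT hearts highest in the chain. The score itself had been defined after its pattern in these data was seen. The settings that join centring with the covariate or with fewer hearts were chosen after seeing the data, as were the block after centring, subtraction of each heart's lowest count, Ndufa4 counted with complex IV and the members of low count left out. With the replicate number as a block, 0 members were called in any comparison. Correlations between same-numbered hearts ran from -0.51 to 0.36, with both signs. The labels do not say whether a number stands for a shared litter or assay run, and these correlations cannot settle it. Leaving out each heart in turn, 0 members were called, and the KO against WT medians ran from -0.45 to -0.24 for complex I, -0.57 to -0.30 for II, -0.50 to -0.28 for III, -0.49 to -0.27 for IV and -0.46 to -0.25 for V, with r on the probe count from -0.75 to -0.67. The lowest medians came without WT heart 2. Scaling to the total count put complexes I, III, IV and V at -0.07, -0.11, -0.11 and -0.08. Quantile normalization put complexes I to V at -0.04, -0.12, -0.01, -0.04 and -0.04, with r at 0.14. Centring on the chain mean, which removes the common difference by construction, put them at 0.01, -0.08, -0.03, -0.03 and -0.01. Without the 3 members of low count r was -0.47. Scaling to the total count multiplies all genes of a heart by 1 factor, and the median of all genes in KO against WT moved from -0.13 to 0.13. Quantile normalization largely removes by construction a trend with count shared by the panel. Why Tbp and the total count differed between genotypes was not tested. Signs of uncalled members turned as follows. Centring on the chain mean: Atp5d 0.07, Cox6a1 0.01, Cox7b 0.21, Cox7c 0.09, Cox8a 0.29, Ndufa11 0.14, Ndufa13 0.05, Ndufa2 0.09, Ndufa3 0.06, Ndufa4 0.01, Ndufa7 0.17, Ndufb11 0.08, Ndufb7 0.01, Ndufs7 0.02, Sdhc 0.02 and Uqcr10 0.01. Total count: Cox7b 0.13, Cox7c 0.01, Cox8a 0.22, Ndufa11 0.06, Ndufa2 0.01, Ndufa7 0.09 and Ndufb11 0.01. Quantile normalization: Atp5d 0.05, Cox7c 0.09, Cox8a 0.03, Ndufa3 0.05, Ndufa7 0.02, Sdhc 0.02 and Uqcr10 0.02. Housekeeping centring gave Cox7b 0.04, Cox8a 0.13 and Ndufa7 0.01. Cox8a also turned to 0.08 with median centring, alone or with the block, 0.07 with the covariate, 0.14 with the covariate after centring and 0.10 after centring without 3 hearts. Cox7b (0.01) and Ndufa7 (0.00) turned with the covariate after centring. Leaving out single hearts, Cox8a ran from -0.12 to 0.05, with 0.04 without KO heart 1 and 0.05 without WT heart 4. The probe counts of Ndufa11, Cox7b and Cox8a limit what can be said of these 3 genes.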
